A study of Mus musculus with 16 samples.

Results

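Cluster 8 and Cluster 4 were the oligodendrocyte clusters of a mouse spinal cord single-cell RNA data set, and Cluster 8 was taken as every cell whose cluster name in the deposited cell annotation opened with 8. It held 892 of 18203 cells (4.90%), which was 33.5% of the oligodendrocytes, and the remaining 1768 oligodendrocytes were in Cluster 4. Its markers were given as Klk6, Apod, Hopx and Serpina3n. The study asked how loss of the Wnt receptor Ryk from astrocytes changes cells around a dorsal column lesion at the C5 level of the cord. WT mice were Ryk+/+,GFAPcreERT2 and cKO mice were Rykfl/fl,GFAPcreERT2, so both genotypes carried the inducible Cre, and its GFAP driver is astrocytic. All mice were 8 to 10 weeks old and received tamoxifen daily for 7 days from 5 days before surgery. Tissue came from uninjured mice (called Sham in some labels) and from mice killed 1 d, 7 d or 14 d after surgery. The paper states that the uninjured controls were analysed 14 d after the conditional knockout of Ryk. There were 2 mice and 1 library per mouse in each of the 8 combinations of genotype and time. The dissociation buffers contained actinomycin D, which blocks new transcription.

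Oligodendrocytes wrap axons of the spinal cord in myelin and supply them with metabolites. Mature oligodendrocytes are not uniform: in the cord, cells rich in Klk6 are concentrated in white matter, and cells rich in Ptgds, Il33 or Apod form other mature states. After injury or inflammation, mature oligodendrocytes in many models switch on Serpina3n, a secreted inhibitor of serine proteases, and C4b, a complement component. Klk6 encodes a secreted serine protease that can cut myelin proteins, Apod encodes a lipid-binding lipocalin, and Hopx encodes a small homeodomain protein that does not bind DNA.

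Cluster 8 cells came from 15 of 16 mice, and the library of the other mouse, WT 1 d replicate 2, held 1 cell of any type. Among WT mice there were 60 and 61 cells in the uninjured mice, 63 and 0 for 1 d, 68 and 39 for 7 d, and 29 and 36 for 14 d. Among cKO mice there were 7 and 53 cells in the uninjured mice, 59 and 130 for 1 d, 114 and 67 for 7 d, and 44 and 62 for 14 d, with replicate 1 named first throughout. Tests used the 14 mice with at least 10 Cluster 8 cells, so WT 1 d replicate 2 and cKO uninjured replicate 1 were not in them. That left 3 uninjured mice, 5 injured WT mice and 6 injured cKO mice. UMIs, the counted RNA molecules, summed over the Cluster 8 cells of a mouse to between 44709 (WT 1 d replicate 1) and 473653 (cKO 7 d replicate 2), and the median cell had 1003.5 UMIs. Levels are given per mouse as CPM, counts per 1000000 UMIs of the Cluster 8 cells of that mouse.

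The libraries differed in ways that the conditions do not name. Cell barcodes were shared between libraries: 166 barcodes occurred in more than 1 library, in 432 cells, 28 of them in Cluster 8. WT 1 d, WT 7 d, cKO 1 d and cKO 7 d, all replicate 1, shared between 28 and 115 barcodes in each of their 6 pairs, and summed over the pairs, where a barcode in more than 2 libraries counts more than once, 315 of 341 matches had the same cluster in both libraries. Every other pair shared 4 or fewer. These 4 libraries held 304 Cluster 8 cells, 24 of them with a shared barcode. For 6 mice, all replicate 2, the condition in the cell names was not that of the sample title, while the deposited treatment column followed the titles in every mouse. Conditions here are those of the titles.

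Nuclear RNA also separated the libraries. Malat1 is a noncoding RNA that stays in the nucleus, and 491 of 892 Cluster 8 cells had at least 1% of their UMIs from it. The percentage of such cells was 90.0 and 4.92 in the WT uninjured mice, 93.7 in WT 1 d replicate 1, 91.2 and 2.56 for WT 7 d, and 69.0 and 44.4 for WT 14 d. In cKO mice it was 5.66 in uninjured replicate 2, 94.9 and 45.4 for 1 d, 98.2 and 23.9 for 7 d, and 36.4 and 19.4 for 14 d. WT uninjured replicate 2, cKO uninjured replicate 2 and WT 7 d replicate 2 thus stood apart with under 10% of such cells, and they included all but 1 of the uninjured mice in the tests. Results are therefore also given without these 3 libraries, with only cells of at least 1% Malat1, and without the barcode-sharing libraries or cells.

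**Figure D1:**
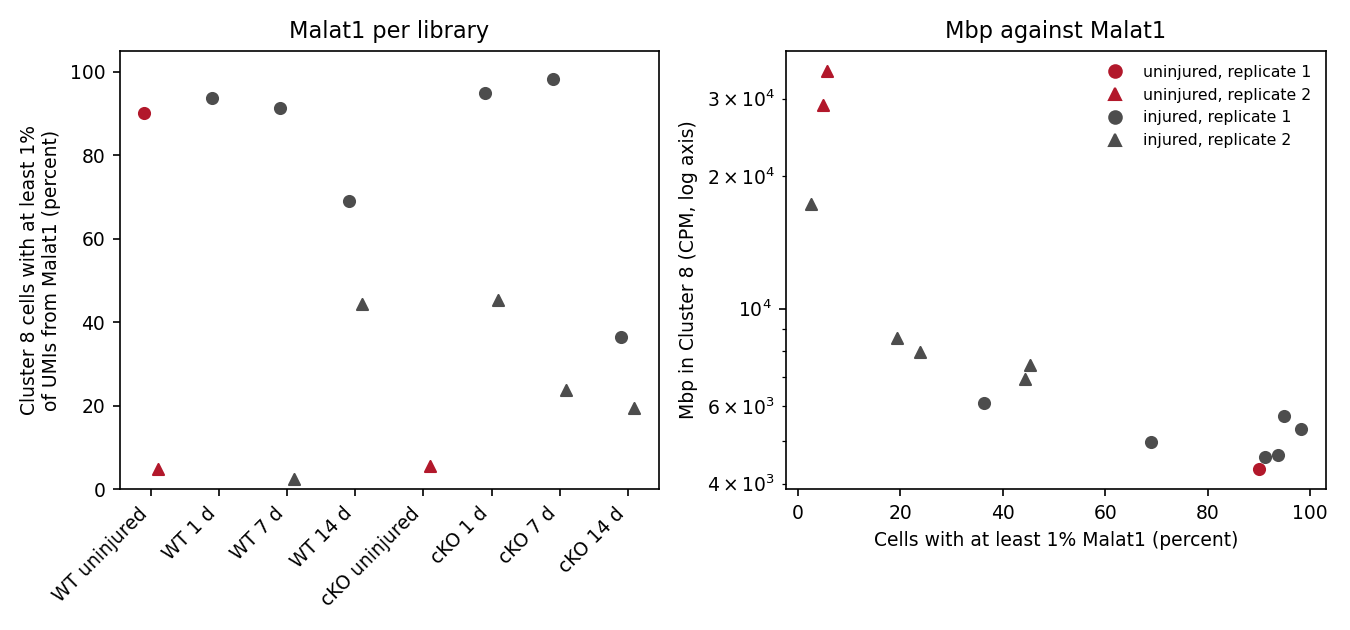
Left, percentage of Cluster 8 cells in each of 14 mice with at least 1% of UMIs from Malat1, by genotype and time; right, the same percentage against Mbp in Cluster 8 (CPM, log axis), with uninjured mice in red and replicate 2 as triangles. The 3 mice with under 10% had Mbp between 17271 and 34716 CPM, and the other 11 between 4310 and 8591 CPM.

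Within single mice the cells poor in Malat1 had a different content from the others. The mice compared were WT 14 d replicate 2, cKO 1 d replicate 2, cKO 7 d replicate 2 and both cKO 14 d mice. They were all injured and did not include the 3 libraries low in Malat1, where this content was not compared. In the 5 mice with at least 10 cells of each kind, the low-Malat1 cells had lower levels in every mouse of the oligodendrocyte transcription factor St18 (mean log2 difference −3.09) and of Nkain2 (−3.08). In all 5 mice they had more RNA of astrocyte genes such as Slc1a2 (3.26) and Gfap (2.48), of neuronal genes such as Snap25 (2.84) and Nefl (2.83), and of Mbp (1.44) and Fth1 (1.26). Of the cluster's own markers, Klk6 was lower in them in 4 of 5 mice (mean log2 difference −1.17), Apod in 4 of 5 (−0.71) and Hopx in all 5 (−0.71). Serpina3n was also lower in 4 of 5 mice (−0.70), but its differences ran from −4.13 to 2.75 and its mean level was 720 CPM in the low-Malat1 cells and 625 CPM in the others. These genes, apart from the markers, Mbp and Fth1, were picked after their values were seen, and what these cells are was not tested.

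The oligodendrocyte name fitted the defining markers. All 15 genes of a list for mature oligodendrocytes had UMIs in Cluster 8, and their sum ran from 46389 to 75494 CPM in the 14 mice of the tests (29417 CPM in the 7 cells of cKO uninjured replicate 1). Mbp of that list was at 10538 ± 9663 CPM (mean ± SD, n = 14 mice). Lists for precursors (Lhfpl3 most abundant), microglia, fibroblasts (Col1a2) and red blood cells (Hbb-bs) summed to at most 282, 1299, 214 and 537 CPM in any of the 14 mice. The astrocyte list reached 3387 CPM, with Aldoc most abundant, and the neuron list 3104 CPM, with Nefl most abundant, both in WT 7 d replicate 2, which was low in Malat1. In the 7 cells of cKO uninjured replicate 1 the precursor and fibroblast lists were at 352 CPM each and the neuron list at 5637 CPM. Red blood cell, microglial and neuronal RNA at these levels may include free RNA taken up in droplets, which was not tested.

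Of the 4 markers, Klk6 was the most restricted to Cluster 8. The 20 leading genes by pooled level against all other cells each had a UMI in at least 10.2% of Cluster 8 cells. Among them Klk6 came first (1941 against 20.9 CPM). Nkx2-9, which encodes a homeodomain transcription factor, and Npb, which encodes a neuropeptide precursor, followed. Klk6 had a UMI in 56.7% of Cluster 8 cells, 12.8% of Cluster 4 cells and 0.836% of Cluster 6 microglia, which should lack it, at median depths of 1003.5, 1115 and 780.5 UMIs. Hopx had a UMI in 45.1%, 7.69% and 1.75% of the same cells. Apod was found in 81.4%, 56.5% and 4.56%, and Serpina3n in 28.7%, 10.0% and 0.760%.
Apod was not confined to the lineage, since fibroblasts had 5504 ± 5748 CPM of it (n = 9 mice). Klk6 (ENSMUSG00000050063.18) lies at chr7:43824499-43832030, Apod (ENSMUSG00000022548.14) at chr16:31296192-31314808, Hopx (ENSMUSG00000059325.14) at chr5:77086988-77115121 and Serpina3n (ENSMUSG00000021091.8) at chr12:104406729-104414329 in mm10 (GENCODE M21, matched by symbol), so they are on separate chromosomes.

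UMIs of the markers were not all found in the same cells, but a cell with no UMI at this depth may still express the gene. After thinning to 1000 UMIs per cell, which kept 448 of the 892 Cluster 8 cells, 972 of Cluster 4 and 578 of Cluster 6, Klk6 had a UMI in 63.4% of Cluster 8 cells, against 8.13% in Cluster 4 and 0.173% in Cluster 6. Among the 448 thinned Cluster 8 cells, 27 (6.03%) had all 4 markers, 162 (36.2%) had 3, 131 (29.2%) had 2, 83 (18.5%) had 1 and 45 (10.0%) had none. In Cluster 4, 508 of 972 thinned cells (52.3%) had none and 2 had all 4. Klk6 and Apod were found together in 58.9% of thinned Cluster 8 cells, and Hopx and Serpina3n together in 6.92%. The share of thinned Cluster 8 cells with Klk6 ran from 23.1% (cKO uninjured replicate 2; 3 of 13 cells, exact 95% interval 5.04 to 53.8%) to 100% (WT 1 d replicate 1; 15 of 15 cells, 78.2 to 100%). It was under 60% in every replicate 2 mouse and at 68.0% or above in every replicate 1 mouse. Intervals cover counting error only.

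Against Cluster 4 of the same mice, Cluster 8 combined a high level of Klk6-state genes with lower levels of Ptgds, Opalin and Il33. The comparison is a description without a test, because the clusters were made from these values. Over 2043 genes with at least 100 CPM on average in either cluster, 95 (4.65%) were higher in Cluster 8 in every one of 14 mice and 197 (9.64%) were lower in every one. The log2 differences below have 50 CPM added to both levels.

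Klk6 was 2027 ± 1189 CPM in Cluster 8 and 212 ± 227 CPM in Cluster 4 (mean ± SD, n = 14; log2 difference 3.21 ± 0.69). Hopx was 905 ± 330 against 66.6 ± 57.3 CPM (3.10 ± 0.49), and Apod 6542 ± 3732 against 1851 ± 1654 CPM (1.94 ± 0.69). These 3 markers were higher in Cluster 8 in all 14 mice. Serpina3n was 830 ± 781 against 202 ± 207 CPM (1.52 ± 0.77) and was higher in 12 of 14 mice, and the mice without the difference were uninjured mice in which both clusters had 18.7 CPM or less.

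The calcium-binding proteins S100b (2.37) and S100a6 (1.44), the phospholipid-binding annexin Anxa5 (2.23), the microsomal glutathione transferase Mgst3 (2.12) and the cell-cycle inhibitor Cdkn1c (2.01) were among the largest differences toward Cluster 8. The others among the 15 largest with the same direction in every mouse were Tubb2b (2.07), Tppp3 (1.81), Tuba1a (1.53), Tmsb4x (1.61), Uchl1, a ubiquitin hydrolase (1.86), Selenop, a selenium carrier (1.68), and Npb. Fth1, the heavy chain of the iron store ferritin, was the most abundant of the iron genes at 34111 ± 20622 CPM against 13416 ± 4246 CPM. Trf, the iron carrier transferrin, was 5653 ± 2117 against 2936 ± 1971 CPM. Both were higher in Cluster 8 in all 14 mice. Within Cluster 8, mean Fth1 was 43611 CPM in low-Malat1 cells and 19129 CPM in the others (5 mice). Pooled over cells of at least 1% Malat1, it was 20235 CPM in Cluster 8 and 10819 CPM in Cluster 4. The first enzyme of the mevalonate branch, Hmgcs1 (769 ± 260 against 309 ± 147 CPM), and the glycolytic enzyme Gapdh (774 ± 296 against 309 ± 128 CPM) were higher in all 14 mice too.

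Ptgds, which encodes prostaglandin D synthase, had the lowest mean difference: 421 ± 295 CPM in Cluster 8 and 9230 ± 5195 CPM in Cluster 4 (log2 difference −4.36 ± 0.55). With only cells of at least 1% Malat1, Ptgds was 323 against 10697 CPM (−5.36, 11 mice). Within Cluster 8, its mean was 1176 CPM in low-Malat1 cells and 179 CPM in the others (5 mice). With CPM averaged over cells, Kirrel3 (−2.71) was lower than Ptgds (−2.55). Opalin, an oligodendrocyte membrane glycoprotein, was 41.4 ± 39.4 against 539 ± 154 CPM (−2.74 ± 0.55), and Il33, an alarmin cytokine of the nucleus, 59.9 ± 44.3 against 565 ± 227 CPM (−2.47 ± 0.69). Cluster 8 was the low cluster for these genes in every mouse. The adhesion protein Kirrel3 (−3.24), the glutamate receptors Grm7 (−2.86) and Grm3 (−1.76), the neuregulin receptor Erbb4 (−2.08), the semaphorin Sema6a (−1.77) and Srgap1 (−1.82), which encodes a regulator of small GTPases, were lower, as were Ano4, Palm2, Nav3, Spock1, Clmn and C030029H02Rik, with differences between −2.35 and −1.77.

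By whole lists, all 4 genes linked to the Klk6-rich mature state that reached 100 CPM (Klk6, Hopx, Anxa5 and Mgst3) were higher in Cluster 8 in every mouse. Klk6 and Hopx are markers given for the cluster, and Anxa5 and Mgst3 were among its largest differences. The count therefore only describes the cluster. Of the 12 linked to the Ptgds, Il33 and Apod states, 4 were higher (Apod, Trf, S100b and Selenop) and 4 lower in every mouse, so Cluster 8 did not have 1 side of that split alone. Of 26 myelin genes, 5 were higher and 3 lower in every mouse, with Mbp at 10538 ± 9663 against 6746 ± 2204 CPM; Mbp was higher in only 8 of 14 mice, and with only cells of at least 1% Malat1 it was lower, at 5183 against 5686 CPM (log2 difference −0.12; higher in 3 of 11 mice). Of 13 adhesion genes 4 were lower and 0 higher in every mouse. Over all 2043 genes, 4.65% were higher and 9.64% lower in every mouse, and the median log2 difference was 0.06. Without the 3 libraries low in Malat1 the counts of genes higher and lower in every mouse were 243 and 228 (11 mice), and with only cells of at least 1% Malat1 they were 241 and 212 (11 mice). The same direction in every mouse is easier to meet in 11 mice than in 14, so these counts cannot be compared directly with those of 14 mice.

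**Figure D2:**
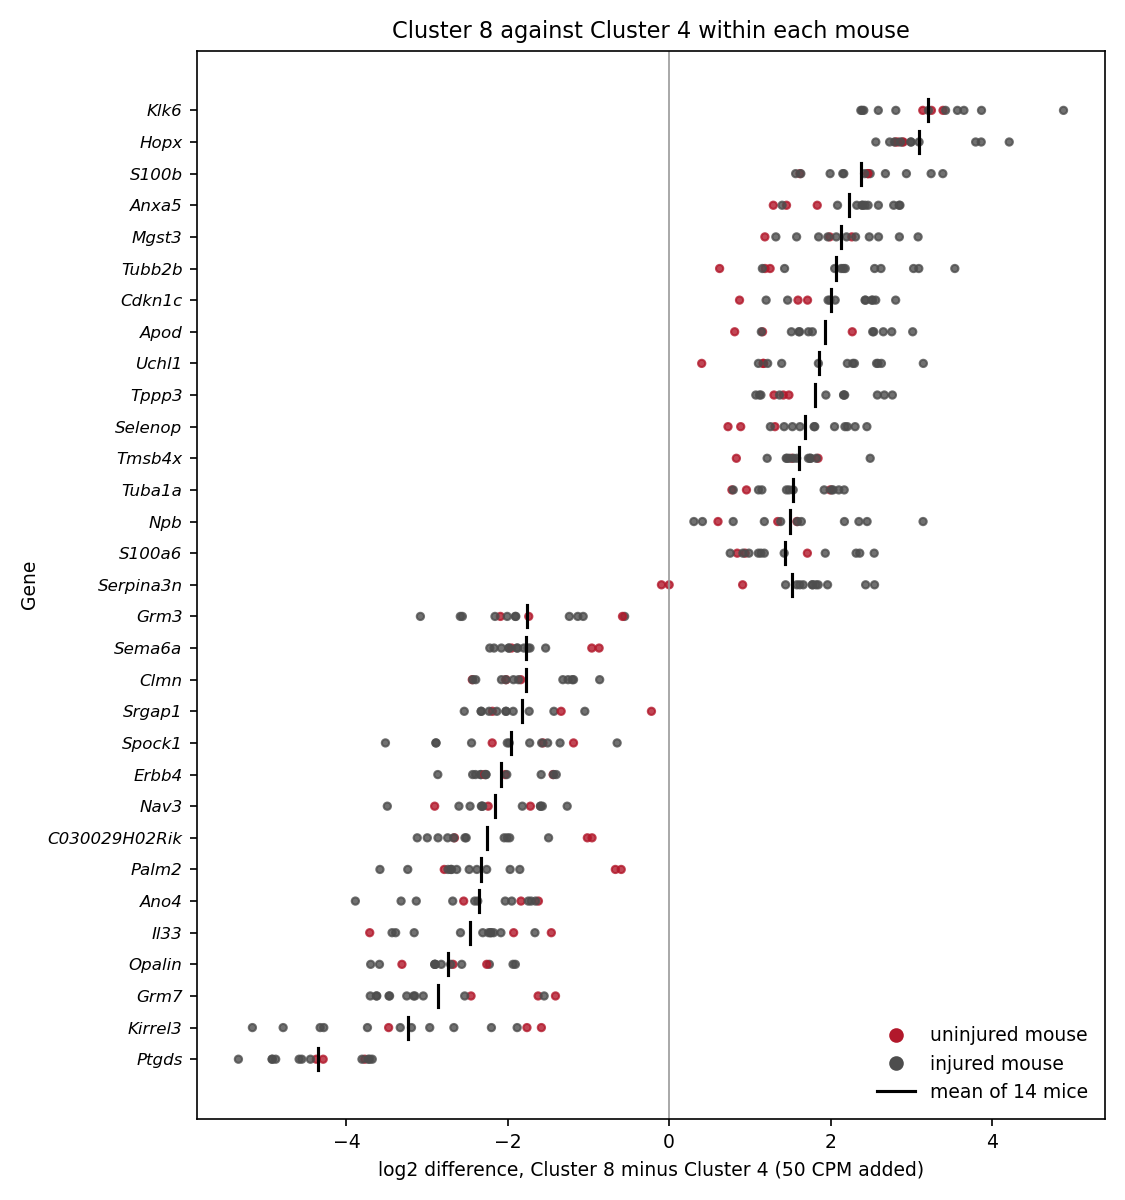
Difference between Cluster 8 and Cluster 4 on the log2 scale (50 CPM added) for the 15 genes with the largest mean difference in each direction among those with the same direction in every mouse, and for Serpina3n; each point is a mouse (red, uninjured; grey, injured) and black bars are means of 14 mice. Ptgds lies lowest (mean −4.36) and Klk6 highest (mean 3.21).

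The injury comparison asked which genes of Cluster 8 differed between injured mice of any time point and uninjured mice, averaged over both genotypes. By the titles, Serpina3n was low or absent in Cluster 8 cells of the uninjured mice and higher in those of every injured mouse. C4b was also low before injury and, by the titles, was highest at 14 d. Mbp and Gphn were higher in the uninjured mice low in Malat1 than in the uninjured mouse rich in it, and Cst3 was lower in most injured mice. No gene passed the adjusted threshold in the planned test.

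Counts summed per mouse were tested with edgeR, and p-values were adjusted over all genes tested by the Benjamini-Hochberg method with a threshold of 0.05. Of 5369 genes, 0 (0%) passed. At an unadjusted p under 0.05 there were 529 genes, 302 of them higher after injury, and DESeq2, another count model, called 97 genes, 8 higher and 89 lower. Neither the number at an unadjusted p nor its balance was stable: it was 1099 without WT uninjured replicate 1, 234 without cKO uninjured replicate 2, with 40 higher, 478 without the 3 libraries low in Malat1, with 91 higher, and 375 in cells of at least 1% Malat1, with 74 higher. By the conditions of the cell names the number was 193, with 123 higher. On the normalized scale of edgeR, 40 genes (0.745%) were higher in every injured mouse than in every uninjured mouse and 10 (0.186%) were lower. The 40 included Serpina3n.

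Serpina3n was 59.2 and 14.3 CPM in the WT uninjured mice and 0 of 46290 UMIs in cKO uninjured replicate 2, which allows up to 64.8 CPM. It was 2102 CPM in WT 1 d replicate 1, 1602 and 245 CPM at WT 7 d, and 821 and 715 CPM at WT 14 d. In the 6 injured cKO mice the lowest was 165, the median 873 and the highest 2273 CPM.
By the titles, all 11 injured mice were above all 3 uninjured mice. The cell names give cKO uninjured replicate 2, at 0 UMIs, as WT 7 d, and by them this separation does not hold. The log2 fold change was 7.43 (adjusted p = 0.194), a size that depends on the small count edgeR adds, since a whole condition was at 0. Serpina3n did pass in DESeq2 (5.71, adjusted p = 0.000634), and in edgeR without a filter on low counts (7.33, adjusted p = 2.88e-06), with mice of at least 5 cells (7.39, adjusted p = 0.0491) and with a term for the animal number series (7.26, adjusted p = 0.00339). Without the 3 libraries low in Malat1, a single uninjured mouse remained, and the log2 fold change was 4.36 (adjusted p = 0.761). With only cells of at least 1% Malat1, that mouse, WT uninjured replicate 1, had 57.0 CPM against 180 to 2132 CPM in 10 injured mice (4.32, adjusted p = 0.807).

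Klk6 was 1273 and 556 CPM in the WT uninjured mice and 475 CPM in the cKO uninjured mouse, with a lowest of 433, a median of 2204 and a highest of 4496 CPM in the 11 injured mice. Of the injured mice, 10 were above every uninjured mouse and WT 7 d replicate 2, low in Malat1, was below them all. The log2 fold change was 1.38 ± 0.65 (SE; adjusted p = 0.502), and it was 1.16 without the 3 libraries low in Malat1. Apod was 6719, 1070 and 1879 CPM in the uninjured mice and between 2672 and 13152 CPM (median 6102) in injured mice, with overlap (1.02 ± 0.66, adjusted p = 0.581). Hopx was 596, 970 and 799 CPM in uninjured mice and 489 to 1685 CPM (median 909) in injured mice, so the groups overlapped over the whole uninjured range. Mean Hopx was 788 CPM in uninjured and 937 CPM in injured mice, while the edgeR value, with TMM scaling of the libraries and equal weight per condition, was −0.35 ± 0.48 (adjusted p = 0.815), so Hopx had no stable direction.

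**Figure D3:**
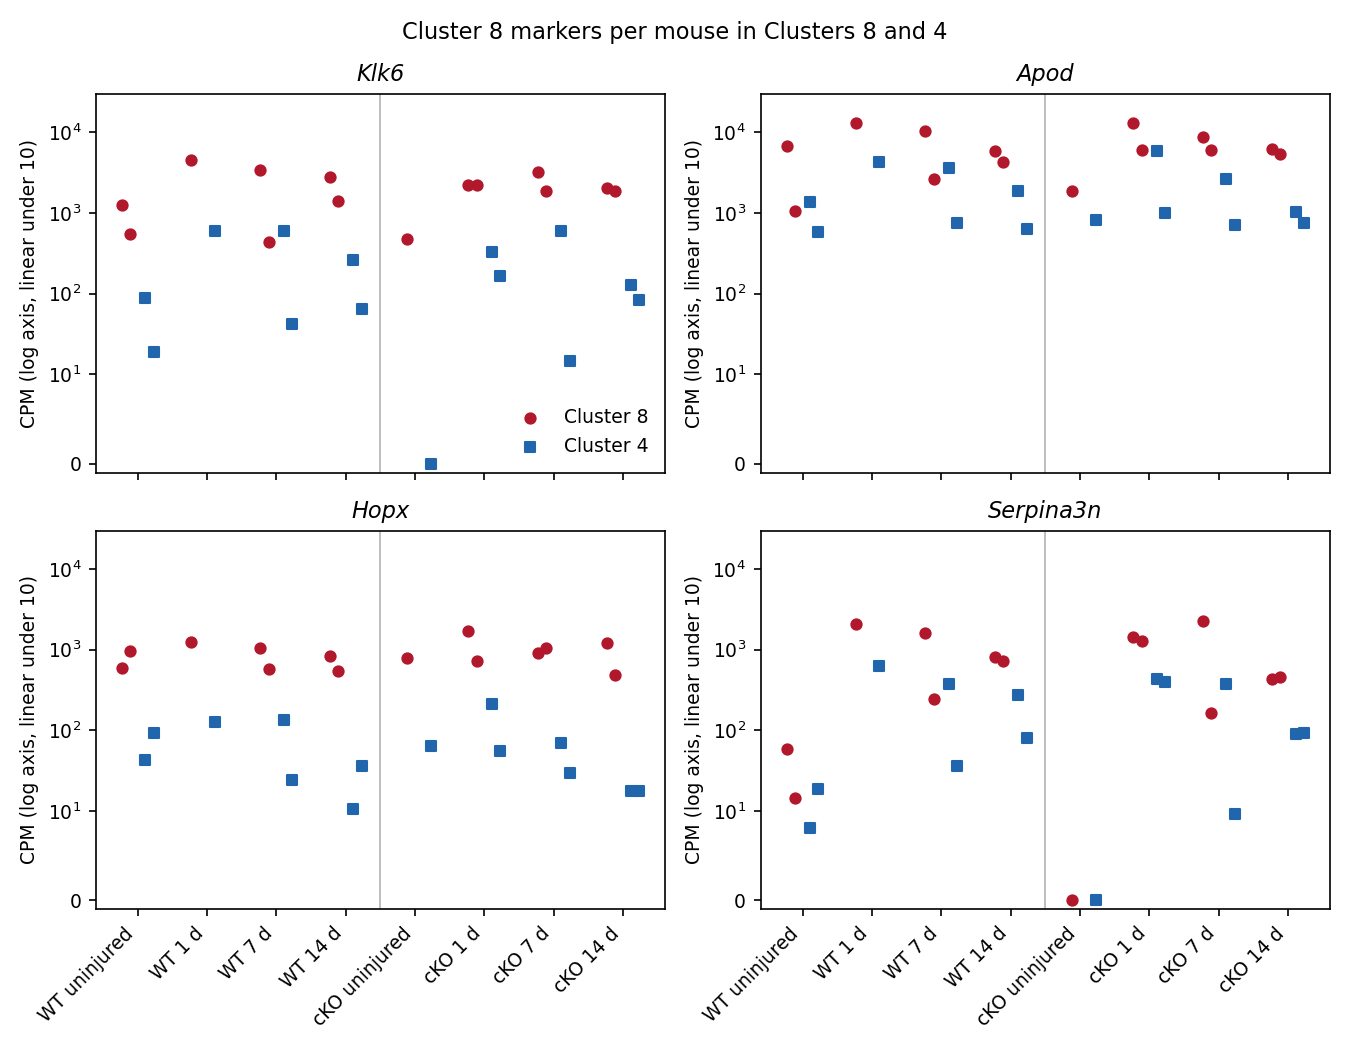
Levels of the 4 markers (CPM, log axis, linear under 10) in each of 14 mice in Cluster 8 (red circles) and Cluster 4 (blue squares), by genotype and time, with replicate 1 left of replicate 2. Serpina3n in Cluster 8 is at 59.2 CPM or less in the 3 uninjured mice and between 165 and 2273 CPM in the 11 injured mice.

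C4b was 92.5, 0 and 21.6 CPM in the uninjured mice, the 0 allowing up to 42.8 CPM, and 67.6 to 758 CPM (median 271) in the injured mice. Of the injured mice, 10 were above every uninjured mouse, and cKO 7 d replicate 2 was not. The log2 fold change was 2.42 ± 0.84 (adjusted p = 0.404). Without WT uninjured replicate 1 it was 5.68 and passed in edgeR (adjusted p = 0.0385), with the WT uninjured condition then at 0. C4b and Serpina3n belong to a list of 20 genes that mark disease-associated oligodendrocytes in other models. Of the 20, 13 were tested and 0 passed. At an unadjusted p under 0.05, 3 were higher and 0 lower (529 of 5369 over all genes, 302 of them higher). The median log2 fold change of the 13 was 2.42 against 0.37 over all genes tested. The 3 were Serpina3n, C4b and Stat3, the transcription factor downstream of interleukin 6 family receptors. Stat3 was at 40.7, 0 and 0 CPM in uninjured mice and 18.8 to 263 CPM in injured mice (4.75, adjusted p = 0.357). Its counts of 0 allow up to 42.8 and 64.8 CPM, above the lowest injured level. The size of 4.75 depends on the small count edgeR adds, since the cKO uninjured condition was at 0. Klk6 is also in that list and was not past an unadjusted p of 0.05. Interferon genes could hardly be followed at this depth, since 4 of 24 were tested.

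Of 26 myelin genes tested, 0 passed in edgeR, 2 were higher and 3 lower at an unadjusted p under 0.05 (529 of 5369 over all genes), and 15 were below 0, with a median log2 fold change of −0.13 against 0.37 over all genes. DESeq2 called Mobp (−1.75, adjusted p = 0.00229) and Mbp lower. Mbp was 4310 CPM in WT uninjured replicate 1 but 28994 and 34716 CPM in the other uninjured mice, and 4594 to 17271 CPM (median 6087) after injury. Its log2 fold change of −2.50 ± 0.62 (adjusted p = 0.243) became 0.05 without the 3 libraries low in Malat1 and −0.02 with only cells of at least 1% Malat1, settings that both leave WT uninjured replicate 1 as the only uninjured mouse. Mbp passed in DESeq2 (−2.64, adjusted p = 0.000697) and without a filter on low counts (−2.32, adjusted p = 0.00258). Gphn, which encodes the synaptic anchoring protein gephyrin, had the smallest p of all (−4.07 ± 0.75, adjusted p = 0.184) and was picked after its values were seen. It was 681 CPM in WT uninjured replicate 1, 15502 and 11298 CPM in the other uninjured mice, and 319 to 2916 CPM in injured mice, with 2916 CPM in WT 7 d replicate 2, the injured mouse low in Malat1. Gphn passed in DESeq2 (−4.22, adjusted p = 5.88e-06), without a filter on low counts (−3.86, adjusted p = 3.08e-12) and with the animal number series (−3.16, adjusted p = 0.000424), and without the 3 libraries its log2 fold change was −0.42.

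Cst3, which encodes the secreted protease inhibitor cystatin C, was also picked after its values were seen. It was 1461, 699 and 583 CPM in the uninjured mice and 89.5 to 778 CPM (median 259) in the injured mice, of which 10 were below every uninjured mouse. The log2 fold change was −2.14 ± 0.47 (adjusted p = 0.194), and Cst3 passed in DESeq2 (−2.27, adjusted p = 0.00191), without a filter on low counts (−2.01, adjusted p = 0.0103) and with the animal number series (−2.12, adjusted p = 0.00741). The values of −3.20 without the 3 libraries low in Malat1 and −3.33 with only cells of at least 1% Malat1 rest on WT uninjured replicate 1 alone, the mouse with the highest Cst3 and the highest microglial list. Cst3 is also abundant in microglia. Of 10 microglial genes 7 were tested, 0 passed, 2 were lower at an unadjusted p under 0.05 (529 of 5369 over all genes in either direction) and 2 were above 0, with a median of −0.41 against 0.37 over all genes. The summed microglial list was 1299, 556 and 540 CPM in uninjured mice and 37.0 to 607 CPM (median 176) in injured mice, so the groups overlapped. The part of microglial RNA in the Cst3 difference was not tested.

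Of 20 cholesterol synthesis genes tested, 0 passed and 0 had an unadjusted p under 0.05 (529 of 5369 over all genes). Of the 20, 10 were above and 10 below 0, with a median log2 fold change of 0.01 against 0.37 over all genes. Hmgcs1 was 507, 770 and 1037 CPM in uninjured mice and 508 to 1505 CPM after injury. Heat shock genes (11 tested) and class I antigen presentation genes (5 tested) had 0 called, and medians of 0.49 and 0.12. Of neuronal genes 5 of 6 were below 0 (median −1.60), and of astrocyte genes 5 of 8 (−1.15), with 0 called. Of nuclear RNAs 6 of 8 were above 0 (median 1.53), with 0 called in edgeR. DESeq2 called Malat1 higher (1.56, adjusted p = 0.0169). The part of these RNAs in the other differences was not tested.

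The count of calls for injury was not stable. Without WT uninjured replicate 1, the only uninjured mouse rich in Malat1, edgeR called 245 genes, and both uninjured mice left were low in Malat1. With only cells of at least 1% Malat1, 3 genes passed, all lower after injury: C1qa, C1qb and the glucocorticoid-responsive kinase Sgk1, each against WT uninjured replicate 1 alone. Without the 3 libraries low in Malat1, which leaves the same uninjured mouse, 0 genes passed. With all 14 mice kept, 62 genes passed without a filter on low counts and 24 with the animal number series, beside the 97 of DESeq2.

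The time points asked when after injury the differences arise. At 1 d, 0 of 5369 genes (0%) passed in edgeR, 416 had an unadjusted p under 0.05, 269 of them higher, and DESeq2 called 33. That number was 893 without WT uninjured replicate 1, and 157 without cKO uninjured replicate 2, with 43 higher; 89 of 309 were higher without the 3 libraries low in Malat1 and 73 of 256 in cells of at least 1% Malat1. Serpina3n had the smallest p at 1 d (log2 fold change 8.18, adjusted p = 0.629), with levels of 2102, 1444 and 1293 CPM in the 3 mice. It passed at 1 d in DESeq2 (adjusted p = 0.00015). In edgeR it passed without a filter on low counts (2.34e-06), with mice of at least 5 cells (0.027) and with the animal number series (0.0215). With RLE factors or a minimum count of 20, 0 genes passed at 1 d or 7 d. At 7 d, 0 of 5369 genes (0%) passed in edgeR, 452 had an unadjusted p under 0.05 (1010 without WT uninjured replicate 1, 165 without cKO uninjured replicate 2) and DESeq2 called 65. Serpina3n again had the smallest p (7.49, adjusted p = 0.557), although the mice split. Replicate 1 of WT and cKO had 1602 and 2273 CPM, and replicate 2 had 245 and 165 CPM. Serpina3n passed at 7 d in DESeq2 (adjusted p = 0.000892). In edgeR it passed without a filter on low counts (1.4e-05) and with the animal number series (0.042). Without WT uninjured replicate 1, edgeR called 108 genes at 7 d. By the conditions of the cell names, the numbers at an unadjusted p under 0.05 were 195 (1 d), 162 (7 d) and 310 (14 d).

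At 14 d, 0 of 5369 genes (0%) passed in edgeR, 548 had an unadjusted p under 0.05 (1088 without WT uninjured replicate 1, 190 without cKO uninjured replicate 2), and DESeq2 called 58. C4b came near the top (3.69 ± 0.87, adjusted p = 0.454). By the titles, its 14 d levels were 758 and 577 CPM in WT and 509 and 674 CPM in cKO mice, above all 7 mice of 1 d and 7 d, whose highest was 299 CPM. The cell names give cKO 14 d replicate 2, at 674 CPM, as cKO 7 d, and by them this separation does not hold. Serpina3n was, by the titles, lower than at 1 d, at 821 and 715 CPM in WT and 429 and 452 CPM in cKO mice (6.64 against uninjured, adjusted p = 0.454). The cell names give WT 7 d replicate 2, with less Serpina3n than any 14 d mouse, as WT 1 d, and by them this order does not hold. DESeq2 called both C4b (adjusted p = 0.0143) and Serpina3n (adjusted p = 0.0114) at 14 d. Without WT uninjured replicate 1 edgeR called 134 genes at 14 d, C4b among them (6.94, adjusted p = 0.0138). Of 20 cholesterol synthesis genes, 15 were above 0 at 1 d (median 0.58 against 0.32 over all genes tested), 14 below 0 at 7 d (−0.16 against 0.41) and 16 below 0 at 14 d (−0.40 against 0.47), with 0 called at each time.

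The genotype comparison asked whether deletion of Ryk from astrocytes changed Cluster 8 after injury. Ryk itself was 59.2 and 0 CPM in the WT uninjured mice and 0 CPM in cKO uninjured replicate 2, and the counts of 0 allow up to 42.8 and 64.8 CPM. It was 67.1 CPM in WT 1 d replicate 1, 70.4 and 56.4 CPM at WT 7 d, and 50.5 and 30.0 CPM at WT 14 d. In the injured cKO mice it was 111 and 56.9 CPM (1 d), 71.8 and 57.0 CPM (7 d), and 66.2 and 69.9 CPM (14 d).
The genotypes overlapped, and the log2 difference was 0.31 ± 0.48 (adjusted p = 1.00). The driver is astrocytic, recombination in oligodendrocytes was not tested, and which stretch of Ryk the 3′ counts cover was not analysed here; the deletion is not checked by these values.

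After injury, the 4 markers were at overlapping levels in Cluster 8 cells of both genotypes. Of 5369 genes, 0 (0%) passed in edgeR, 127 had an unadjusted p under 0.05, 107 of them higher in cKO, and DESeq2 called 0. The 127 ran from 63 (without cKO 14 d replicate 1) to 226 (without WT 7 d replicate 1) on omission of 1 mouse, and they were 409 without the 3 libraries low in Malat1, 323 in cells of at least 1% Malat1, 206 without the 4 barcode-sharing libraries and 327 by the cell names. Genes of other cell types also lay mostly above 0 in cKO: 6 of 6 neuronal (median 1.88), 6 of 7 microglial (1.95) and 7 of 8 astrocyte genes (0.70), against a median of 0.09 over all genes, with none at an unadjusted p under 0.05; their part in the count was not tested. In 10 genes (0.186%) every cKO mouse was above every WT mouse and in 3 (0.0559%) every cKO mouse was below. Klk6 ran from 433 to 4496 CPM (median 2824) in WT and from 1858 to 3270 CPM (median 2138) in cKO mice, with a log2 difference of −0.24 ± 0.51. Serpina3n differed by −0.34 ± 0.59, Apod by −0.05 ± 0.55 and Hopx by 0.14 ± 0.44, each with an adjusted p of 1.00. The smallest p belonged to 9330117O12Rik, picked after its values were seen (−1.52 ± 0.41, adjusted p = 1.00).

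In uninjured mice the genotype comparison rested on a single cKO mouse. Of 5369 genes, 0 (0%) passed in edgeR, 344 had an unadjusted p under 0.05, 31 of them higher in cKO, and DESeq2 called 0. The 344 were 164 without WT uninjured replicate 1 and 938, with 384 higher, without WT uninjured replicate 2. Malat1 was 54344 and 10026 CPM in the WT uninjured mice and 1642 CPM in the cKO mouse (−3.85 ± 1.53, adjusted p = 0.637). The comparison of the genotype difference after injury with that in uninjured mice also had 0 of 5369 genes (0%) in edgeR, with 394 at an unadjusted p under 0.05 (191 without WT uninjured replicate 1, 873 without WT uninjured replicate 2) and 0 in DESeq2. Neither comparison could be made without cKO uninjured replicate 2. With mice of at least 5 cells, which adds cKO uninjured replicate 1, the 344 became 541, with 33 higher. By the cell names, WT uninjured replicate 2 was the cKO mouse, which left 1 mouse per genotype. The median log2 difference over all genes was then −0.35, against −0.73 by the titles. Genes at an unadjusted p under 0.05 were then no longer mostly lower in cKO.

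The share of Cluster 8 among oligodendrocytes asked whether injury or genotype changed the balance of Clusters 8 and 4. All 15 mice with at least 50 cells entered. The share was 25.5% and 48.8% in the WT uninjured mice and 19.4% and 48.2% in the cKO uninjured mice, and 35.5 ± 15.2% over these 4. In the 11 injured mice it was 32.9 ± 7.14%, between 19.7% and 42.7%. The replicate 2 uninjured mice, both low in Malat1, were above every injured mouse. WT uninjured replicate 1 was inside the injured range, and cKO uninjured replicate 1, with 7 Cluster 8 cells, was just below it. Within replicate 1, every injured mouse (28.4 to 38.4%) was above both uninjured mice. Within replicate 2, every injured mouse (19.7 to 42.7%) was below both. The injury difference thus averages opposite signs in the 2 replicate sets. The difference was −2.58 percentage points (exact two-sided permutation p = 0.654 over 1365 arrangements, of which the smallest possible p was 0.000733). cKO minus WT after injury was 1.59 percentage points (exact permutation within time points, p = 0.611 over 108 arrangements). Both directions turned with the cells or mice used: the injury difference was 17.5 in cells of at least 1000 UMIs, 9.85 without the 3 libraries low in Malat1, 6.70 in cells of at least 1% Malat1 and 2.93 by the cell names, and the genotype difference was −7.53 in cells of at least 1000 UMIs. In Clusters 4 and 8 summed together, none of the 4 markers passed for injury in edgeR, with adjusted p of 0.771 for Klk6 and Apod, 0.956 for Hopx and 0.425 for Serpina3n, although Klk6, Apod and Serpina3n had an unadjusted p under 0.05; whether marker levels shift the share was not tested.

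Cluster 4 of the same mice gave the test of whether a response to injury differed between the oligodendrocyte clusters. In Cluster 4, Serpina3n was 8.10, 18.7 and 0 CPM in the uninjured mice and 9.69 to 631 CPM (median 271) in injured mice, 10 of 11 of which were above every uninjured mouse. The difference between the injury responses of Cluster 8 and Cluster 4 was 0.01 on the log2 scale for Serpina3n, −0.72 for Klk6 and −0.39 for C4b, and each had an adjusted p of 1.00. The Serpina3n value was not stable, at −0.61 to 2.16 on omission of 1 mouse and −0.63 without the 3 libraries low in Malat1. The genes that passed were instead the microglial genes C1qa and Tyrobp and the predicted gene Gm10800. All 8 microglial genes tested were lower at an unadjusted p under 0.05 (median −4.71 against 0.08 over all genes). All 9 neuronal genes tested were above 0 (median 1.20), 4 of them at an unadjusted p under 0.05. Over all genes, 319 of 7021 had an unadjusted p under 0.05, 189 of them with a higher response in Cluster 8.

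Of 7021 genes tested in a model with the mouse as a block, 3 (0.0427%) passed in edgeR, all with a lower response in Cluster 8, 319 had an unadjusted p under 0.05 (709 without WT uninjured replicate 1) and DESeq2 called 1, C1qa. C1qa encodes a chain of complement C1q made by microglia. In Cluster 8 it was 292, 0 and 64.8 CPM in the uninjured mice and 0 to 98.0 CPM in the injured mice, and in Cluster 4 it was 0 to 62.2 CPM in all 14 mice (log2 difference −5.69, adjusted p = 0.000434). Tyrobp, a microglial signalling adaptor, was 107, 28.5 and 0 CPM in uninjured and 0 to 37.9 CPM in injured Cluster 8 cells, and at most 36.9 CPM in Cluster 4 (−7.95, adjusted p = 0.0483). Both were highest in WT uninjured replicate 1, and without that mouse the C1qa difference was −2.85 (adjusted p = 0.593). Tyrobp was not called with a minimum count of 20, with mice of at least 5 cells or in cells under 10% mitochondrial UMIs. It was also not called without WT uninjured replicate 2 and on several other omissions of 1 mouse.
C1qa had a UMI in 7.17% of Cluster 8 cells and 96.4% of Cluster 6 microglia, at median depths of 1003.5 and 780.5 UMIs. The microglial list of 10 genes summed to 1299 CPM in Cluster 8 and 64.8 CPM in Cluster 4 of that mouse. Its part in these calls was not tested.

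Gm10800 (log2 difference −4.28, adjusted p = 0.00452) was 0 to 157 CPM in Cluster 8 of all mice. In Cluster 4 it was 8.10, 662 and 344 CPM in uninjured mice and 0 to 5843 CPM in injured mice, at 0 CPM in all 4 barcode-sharing libraries. It had a UMI in 4.82% of Cluster 8 cells, 35.1% of Cluster 4 cells, 4.71% of Cluster 6 microglia and 68.2% of Cluster 3 neurons, at median depths of 1003.5, 1115, 780.5 and 1848 UMIs; the part of neuronal RNA in its difference was not tested. Without the 4 barcode-sharing libraries, 6 genes passed, and without the 3 libraries low in Malat1, 5 passed, among them C1qa (−6.41), Tyrobp (−8.71) and Cst3 (−2.68) but not Gm10800 (−2.01). Gm10800 was also not called in cells under 10% mitochondrial UMIs or without WT uninjured replicate 2. C1qa (ENSMUSG00000036887.5) lies at chr4:136895917-136898803, Tyrobp (ENSMUSG00000030579.10) at chr7:30413760-30417585 and Gm10800 (ENSMUSG00000075014.1) at chr2:98666547-98667301.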

How the data were processed

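The unit count is the deposited table of UMI counts per cell, made by the authors with Cell Ranger and joined and clustered with Seurat; the unit percent is the mitochondrial percentage in the authors' cell table. Cluster membership is the authors' and was not remade. No doublet caller was run and doublets were not tested; the highest Cluster 8 cell had 81385 UMIs against a median of 1003.5. Counts were summed per mouse, normalized by TMM and tested with edgeR quasi-likelihood fits of the group means of the conditions (residual degrees of freedom 6); DESeq2 was an alternative. SE is the log2 fold change divided by the square root of F. Members and lists were chosen with earlier results of these data known. Named genes were the 4 markers and Ryk, called genes, up to 4 most abundant members of each list described, and the 15 largest differences in each direction between the clusters among genes with the same direction in every mouse. The authors' batch equals the replicate number in 16 of 16 mice, so the numbers may pair samples. Deviations from condition means correlated with a median of 0.276 over 15 pairs of conditions, 9 of them above 0.1. WT 14 d did not follow the others, with correlations from −0.314 to 0.0204. A fit with the replicate as a block called 0 genes in each condition comparison. Genes were matched to GENCODE M21 by symbol.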

Additional observations from a re-analysis of the deposited data

Results flagged for a closer look

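Among injured cKO mice, Klk6 stood apart in cKO 7 d replicate 1 (3270 CPM) and Ryk in cKO 1 d replicate 1 (111 CPM), and among injured WT mice Mbp stood apart in WT 7 d replicate 2 (17271 CPM), by Dixon's ratio. The injury response of Cluster 8 differed from that of Cluster 4 for C1qa (−5.69), Gm10800 (−4.28) and Tyrobp (−7.95).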

How the results depend on the processing

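With 3 uninjured mice in the tests, 2 of them low in Malat1, injury, library and nuclear RNA content cannot be told apart for many genes. For injury, DESeq2 called 97 genes, no filter on low counts 62, mice of at least 5 cells 1, a term for the animal number series 24, cells of at least 1% Malat1 3, and omission of 1 mouse 0 to 245 (245 without WT uninjured replicate 1, 1 without cKO 1 d replicate 2). At 1 d the counts were 33 (DESeq2), 20 (no filter), 1 (at least 5 cells) and 1 (animal series). At 7 d they were 65, 22 and 8 (DESeq2, no filter, animal series) and 0 to 108 on omission of 1 mouse. At 14 d they were 58, 22 and 127 in the same order, 1 with cells of at least 1% Malat1, and 0 to 134 on omission of 1 mouse. For the genotype after injury, no filter called 1 gene, Xist (−4.34). The paper used mice of both sexes, and the part of sex in the Xist difference was not tested. The replicate block changed no other call. Mbp after injury was 0.0530 without the 3 libraries low in Malat1.

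For the response of Cluster 8 minus Cluster 4 the counts were 1 (DESeq2), 9 (no filter), 8 (cells of at least 1000 UMIs), 1 (under 10% mitochondrial UMIs), 5 (conditions of the cell names), 6 (without the 4 barcode-sharing libraries), 5 (without the 3 libraries low in Malat1), 7 (cells of at least 1% Malat1) and 2 to 17 on omission of 1 mouse (17 without WT uninjured replicate 1, 8 without cKO 1 d replicate 2, 7 without cKO 14 d replicate 1, 5 without cKO uninjured replicate 2). Group means with the replicate block and no mouse block called 0. That fit gave C1qa a p of 1 beside a log2 difference of −6.55. A fit that did not converge where conditions had no counts can give this, which was not tested. Its count of 0 is therefore given as it stands. Serpina3n, 0.01 in the planned test, was −0.0608 with RLE factors, −0.0047 without a filter, −0.0116 with a minimum count of 20, −0.0045 in cells of at least 1000 UMIs, −0.24 under 10% mitochondrial UMIs, −0.0508 without cells of a shared barcode, −0.63 without the 3 libraries low in Malat1, −0.60 in cells of at least 1% Malat1, and −0.61 to 2.16 on omission of 1 mouse.

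The share difference for injury was 0.251 as percent of all cells, 17.5 in cells of at least 1000 UMIs, 2.93 by the cell names, 9.85 without the 3 libraries low in Malat1, 6.70 in cells of at least 1% Malat1, and −7.93 to 1.86 on omission of 1 mouse. For the genotype it was −7.53, −4.67 and −1.25 in cells of at least 1000 UMIs, by the cell names and in cells of at least 1% Malat1. Genes higher and lower in every mouse in Cluster 8 than in Cluster 4 numbered 40 and 76 after thinning, 199 and 337 without the 4 barcode-sharing libraries, 243 higher without the 3 libraries low in Malat1 and 241 higher in cells of at least 1% Malat1. The same direction in every mouse is easier to meet with fewer mice, so settings that drop mice cannot be compared directly with the main counts. Alternatives without these libraries or by Malat1 were added after the data were seen.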
